A study of Homo sapiens with 5 samples.

Results

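Genes of glycolysis and of the response to low oxygen were examined in 5 human pancreatic cell lines. The 43 members were fixed by name, and for each the probe set with the highest mean log2 level was taken from those carrying a single gene symbol. Of these, 40 were measured, out of 19775 genes with such a probe set. SLC16A1, SLC16A3 and CA9 were not analysed here. The carcinoma lines were PANC1, HPAF1, SU86.86 and L3.6, and the comparison line was HPDE. The source label calls all 5 lines cancer lines, whereas HPDE is known in the field as immortalised cells of a normal pancreatic duct. No line received a treatment, culture was by the supplier's protocol, and the labels give neither an oxygen level nor the glucose content or density of the cultures. RNA of each line was hybridised to 1 array, so no value has an error of its own and each line stands for 1 culture only.

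Glycolysis turns glucose into pyruvate in the cytoplasm, and lactate dehydrogenase can reduce that pyruvate to lactate. The transcription factors HIF1A and EPAS1 are destroyed in the presence of oxygen after prolyl hydroxylases of the EGLN family mark them. When oxygen is scarce they pair with ARNT, bind a short core motif, and raise transcription of glucose carriers, most glycolytic enzymes, angiogenic factors and mitochondrial stress genes. Pancreatic carcinomas are known for dense, poorly perfused tissue and for heavy use of glucose.

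The core motif bound by HIF was read in the promoters of the members, because many members are known HIF targets. The motifs ACGTG and GCGTG were searched on both strands of the 250 bases before the gene's start, with sequences from RefSeq on GRCh38.p14. The palindrome CACGTG, which is also the binding core of MYC and other E-box factors, holds ACGTG on both strands and was counted once. A promoter was matched for 35 of the 40 measured members, and 24 of these 35 (68.6%) held at least 1 core. Of all 35116 promoters, 43.2% did, a background not limited to the 19775 genes measured here. The members' promoters also held more CpG dinucleotides, with a median of 24 against 11 over all promoters, and both core motifs contain a CpG. The windows of 4 members follow, 5′ to 3′ on the gene's strand with the core in capitals. LDHA and PFKP are shown as enzymes that were lowest in HPDE, and BNIP3 and DDIT4 as the members with the widest ranges over the lines.
LDHA (chr11:18394313-18394562, plus strand): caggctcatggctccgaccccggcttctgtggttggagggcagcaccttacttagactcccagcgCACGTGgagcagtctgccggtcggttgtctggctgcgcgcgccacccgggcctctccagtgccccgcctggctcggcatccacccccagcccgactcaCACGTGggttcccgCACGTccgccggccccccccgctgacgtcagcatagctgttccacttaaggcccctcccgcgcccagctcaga
PFKP (chr10:3067720-3067969, plus strand): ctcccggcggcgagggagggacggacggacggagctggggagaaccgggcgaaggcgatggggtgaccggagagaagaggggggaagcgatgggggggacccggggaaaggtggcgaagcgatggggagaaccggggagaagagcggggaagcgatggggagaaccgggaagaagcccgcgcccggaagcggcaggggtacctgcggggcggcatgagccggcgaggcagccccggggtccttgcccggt
BNIP3 (chr10:131981924-131982173, minus strand): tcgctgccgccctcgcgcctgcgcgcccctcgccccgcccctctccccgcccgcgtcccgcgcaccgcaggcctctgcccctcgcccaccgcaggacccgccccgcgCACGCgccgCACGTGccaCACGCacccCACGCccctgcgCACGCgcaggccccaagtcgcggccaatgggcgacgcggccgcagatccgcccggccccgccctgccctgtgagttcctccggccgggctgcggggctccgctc
DDIT4 (chr10:72273674-72273923, plus strand): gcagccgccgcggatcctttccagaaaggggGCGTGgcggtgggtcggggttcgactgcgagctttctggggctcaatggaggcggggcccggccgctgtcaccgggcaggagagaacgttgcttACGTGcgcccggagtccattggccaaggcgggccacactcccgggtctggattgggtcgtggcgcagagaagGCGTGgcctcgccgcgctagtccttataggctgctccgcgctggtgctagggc
The LDHA window held 3 cores, 2 of them as CACGTG, and the DDIT4 window also held 3. BNIP3 held 5 cores close together and 41 CpG dinucleotides, the most among the matched members. PFKP held none in these letters. A match is a description of sequence and was not tested as a binding site.

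Levels are given as deposited intensities in arbitrary units. Differences are log2 differences after 71.1 units, the 25th percentile of all values, were added to each intensity, and folds are on that scale too, which understates the difference of dim genes. The level filter was 140 units, the median of all probe sets, and a reading below it is treated as near background. All 40 members reached it in at least 1 line, as did 14894 of all genes, although the STC1 probe set used did so only through L3.6. The array medians lay between 137.4 and 143.2 units. The standard deviation between arrays on 9 spike-in control probe sets was 0.10 log2 units at the median and at most 0.14, which covers hybridisation and scanning but not a second culture. The 3′ to 5′ signal ratio of the actin control, a measure of RNA integrity and labelling, was 1.02 to 1.22 in the carcinoma lines and 1.34 in HPDE, while that of GAPDH was 1.02 to 1.04 in the carcinoma lines and 1.02 in HPDE. Of 7 markers of simple and duct epithelium, 6 were above the level filter in PANC1, where KRT7 was at 111.5 units, and 7 were in HPAF1, SU86.86, L3.6 and HPDE. The 3 acinar markers measured were below the filter in every line. Of 3 leukocyte markers, PTPRC was below it in every line, CD14 was above it in HPAF1 alone (350.3 units), and CD3E was just above it in all (143.6 to 186.8 units in the carcinoma lines, 177.4 in HPDE). Of 4 endothelial markers, VWF, CDH5 and KDR were below it in every line and PECAM1 was above it in all (451.6 to 668.0 units in the carcinoma lines, 426.2 in HPDE). Of 4 islet markers, INS, GCG and SST were below it and CHGA above it in every line.

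The members differed widely between lines, and not as a block. The log2 range over the 5 lines had a median of 1.41 among the members, against 0.85 over all genes kept. The genes kept include dim ones, whose ranges the added constant narrows, and no background of bright genes alone was taken for ranges. In all, 31 of 40 members spanned at least 2-fold, where the background was 42.4% of all genes, and 9 spanned at least 8-fold, where it was 5.1%. DDIT4 had the widest range (4.70), followed by BNIP3 (4.39), STC2 (3.72) and NDRG1 (3.57), and the glucose carrier and enzyme genes with the widest ranges were PFKP (3.33) and SLC2A1 (3.06). BNIP3 and STC2 reach down to readings below the level filter, so their ranges depend on the added constant: with 1 unit added BNIP3 had the widest range (6.15), ahead of DDIT4 (4.89) and STC2 (4.74). PFKFB4 had the narrowest (0.45). L3.6 held the lowest level of 1 of the 40 members (14.4% of all genes) and the highest of 10 (19.4%). PANC1 was highest for 10 members (20.2%) and lowest for 11 (17.0%). HPAF1 was highest for 8 (23.7%) and lowest for 4 (22.3%), and SU86.86 was highest for 9 (14.8%) and lowest for 9 (23.6%). HPDE held the lowest level of 15 members and the highest of 3, where 22.7% and 22.0% of all genes were lowest and highest in that line. At least 2-fold apart from HPDE in either direction were 13 members in PANC1 (17.7% of all genes), 11 in HPAF1 (17.0%), 15 in L3.6 (15.1%) and 15 in SU86.86 (16.2%). Bulk RNA gives a mean over a culture, so fewer expressing cells and less RNA per cell cannot be told apart.

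**Figure D1:**
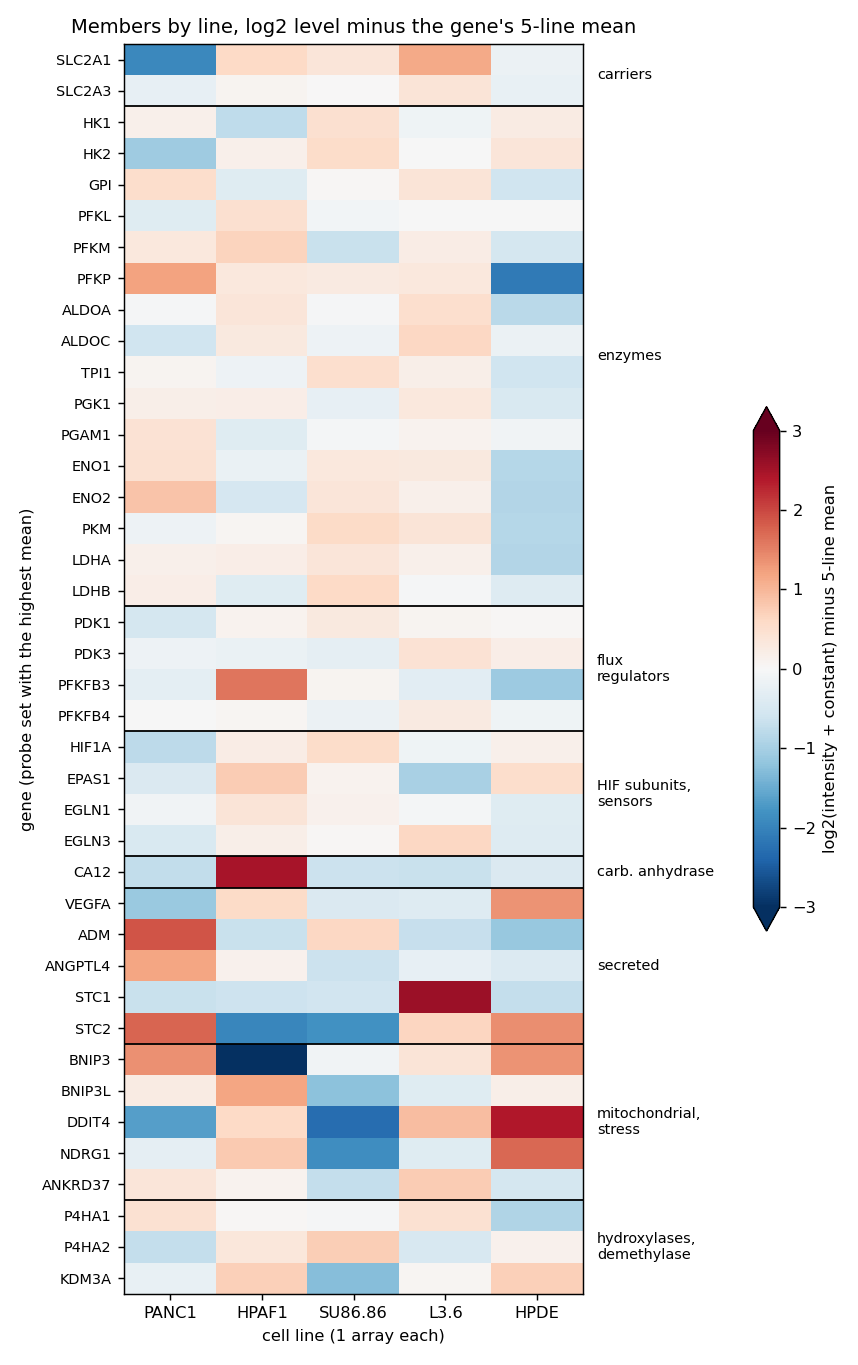
Each row is a measured gene and each column a cell line; colour is the log2 level minus the gene's own mean over the 5 lines, with red above and blue below that mean and rows grouped by role. The enzyme rows are mostly blue in HPDE, led by PFKP. Strong colours among the other rows fall in different lines. Examples are CA12 and BNIP3 in HPAF1, STC1 in L3.6, SLC2A1 and ADM in PANC1, and DDIT4 in SU86.86 and HPDE. STC2 is strongly coloured in HPAF1, SU86.86 and PANC1.

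Glucose enters these cells through facilitative carriers. SLC2A1, the carrier GLUT1 found in most proliferating cells, had 973 units in PANC1, 8629 in L3.6, 5997 in HPAF1 and 5074 in SU86.86, against 3474 in HPDE. PANC1 was the low line and L3.6 the high one, with differences from HPDE of -1.76 and 1.30. In limma, PANC1 against the mean of the other 4 lines differed by -2.42 (SE 0.51), with an adjusted p of 0.455 over all genes. SLC2A3, the high-affinity carrier GLUT3, was dim throughout, from 189 units in PANC1 to 331 in L3.6, with 194 in HPDE, on the probe set used. Its other probe sets were above the level filter in L3.6 alone, at 147.2 and 191.5 units. On these L3.6 minus HPDE was 1.04 and 1.59, so whether the other lines lie near background depends on the probe set. Both carriers had their highest level in L3.6. SLC2A3 in PANC1 was level with HPDE, at -0.03, and at 0.01 after quantile normalization.

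Most glycolytic enzymes were lowest in HPDE. Of 16 enzyme genes, 10 had their lowest level there, LDHB by only 0.01, where 22.7% of all genes did, or 20.3% of the 7889 genes whose mean reached the 75th percentile of all probe sets. Relative to HPDE, 5 enzymes were at least 2-fold higher in PANC1 (8.47% of all genes, 11.3% of the bright ones), and 4 were in HPAF1 (7.77% and 8.82%). In SU86.86 there were 6 (8.44% and 11.0%), and in L3.6 also 6 (6.55% and 9.1%). At least 2-fold lower were 1 in PANC1, HK2, and 1 in HPAF1, HK1, against backgrounds of 9.26% and 9.27%, and 0 in SU86.86 and L3.6, against 7.72% and 8.59%. The median difference of the enzymes from HPDE was 0.69 in PANC1, 0.79 in L3.6, 0.48 in HPAF1 and 0.71 in SU86.86, and that of all genes lay between -0.03 and 0.03. HPDE is 1 array common to the 4 differences, so these are not independent of each other. The actin 3′ to 5′ ratio was also highest in HPDE (1.34), and its part in these differences was not tested.

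The first committed step of glycolysis, made by phosphofructokinase, showed the largest of these differences. PFKP, the platelet-type isoform of that enzyme, had 9187 units in PANC1, 4939 in L3.6, 4932 in HPAF1 and 4752 in SU86.86, against 851 in HPDE. Every carcinoma line was far above HPDE, by 2.39 in SU86.86 to 3.33 in PANC1, which is 5.23-fold to 10.04-fold. HPDE minus the mean of the carcinoma lines was -2.65 (SE 0.44, limma adjusted p = 0.344 over all genes). The gene's other probe set was dim and nearly level, from 202 to 265.5 units in the carcinoma lines and 219.5 in HPDE, so the difference rests on 1 probe set. PFKM, the muscle-type isoform, had a different order, with 1550 units in PANC1, 1452 in L3.6, 1998 in HPAF1 and 742 in SU86.86, against 840 in HPDE. SU86.86 and HPDE were the low lines for PFKM, with SU86.86 at -0.16 relative to HPDE. The liver-type isoform PFKL was highest in HPAF1 and lowest in PANC1, over a range of 0.85, so the 3 isoforms shared no order of lines.

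Lactate dehydrogenase A, whose tetramer favours the formation of lactate, separated HPDE from a tight group of carcinoma lines. LDHA had 13115 units in PANC1, 13137 in L3.6, 13558 in HPAF1 and 15072 in SU86.86, against 6308 in HPDE. The carcinoma lines lay close together, each 1.05 to 1.25 above HPDE. HPDE minus their mean was -1.11 (SE 0.19, limma adjusted p = 0.348, unadjusted p = 0.00263). LDHB, the subunit that favours the reverse reaction, had 14160 units in PANC1, 12126 in L3.6, 9609 in HPAF1 and 18950 in SU86.86, against 9511 in HPDE. Here HPAF1 was level with HPDE (difference 0.01), and SU86.86 was highest (0.99). The lowest line for LDHB was not settled between HPAF1 and HPDE: HPAF1 lay at -0.02 after quantile normalization, and on the other probe set HPAF1 had 9001 units against 9012 in HPDE.

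PKM, ALDOA and ENO2 were also lowest in HPDE on the probe sets used. PKM, pyruvate kinase of most adult tissues and tumours, had 7491 units in PANC1, 10914 in L3.6, 8624 in HPAF1 and 12427 in SU86.86, against 4554 in HPDE, a difference from HPDE of 0.71 to 1.43. ALDOA, the aldolase of muscle and most tumours, had 8862 units in PANC1, 12978 in L3.6, 11792 in HPAF1 and 8848 in SU86.86, against 5096 in HPDE. ENO2, the neuronal enolase, had 532 units in PANC1, 299.6 in L3.6, 162 in HPAF1 and 360 in SU86.86, against 110.3 in HPDE, the last being below the level filter. For each of these genes every carcinoma line lay above HPDE on the probe set used. The other probe set of PKM was dim and had PANC1 lowest. It read 108.7 units in PANC1, 189.1 in L3.6, 268.0 in HPAF1 and 348.0 in SU86.86, against 273.4 in HPDE. GPI, TPI1, PGK1 and ENO1 were likewise lowest in HPDE on the probe sets used, with ranges over the lines from 0.76 for PGK1 to 1.31 for ENO1. Of the other probe sets above the filter, 2 of 3 for ENO1 and 4 of 5 for PGK1 also had HPDE lowest. On the remaining dim ENO1 probe set HPDE was highest, at 162.4 units. On that of PGK1 HPAF1 was lowest, at 99.1 units against 151.8 in HPDE. HK1, PFKL, ALDOC and PGAM1 were not lowest in HPDE, and had ranges from 0.80 to 1.25.

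Hexokinase traps glucose in the cell, and its order of lines was not settled for HK2. HK2, the inducible hexokinase of muscle and tumours, had 399 units in PANC1, 906 in L3.6, 1022 in HPAF1 and 1366 in SU86.86, against 1185 in HPDE. PANC1 was the low line, at -1.42 relative to HPDE. The gene's 2 dimmer probe sets ran the other way, with HPDE lowest and below the level filter on both. On these the carcinoma lines lay 0.51 to 1.40 and 0.32 to 1.08 above HPDE, PANC1 being highest, so the order of lines for HK2 depends on the probe set.

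**Figure D2:**
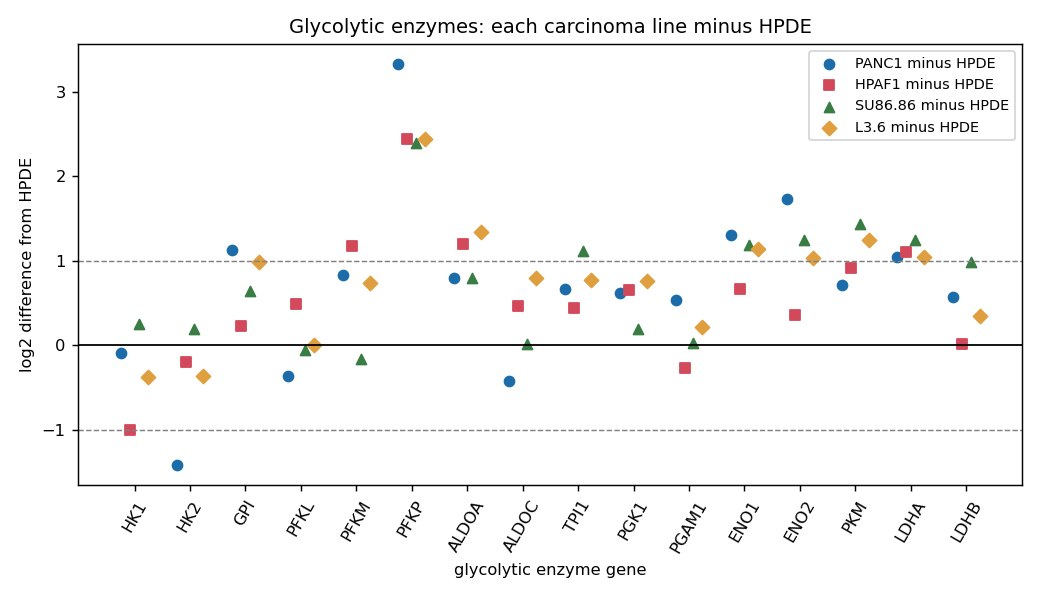
Points are log2 differences from HPDE (vertical axis) for 16 glycolytic enzyme genes (horizontal axis) in the 4 carcinoma lines, with 1 array per line; the solid line marks HPDE and the dashed lines a 2-fold difference. All 4 lines lie above HPDE for PFKP, ALDOA, ENO1, ENO2, PKM and LDHA, whereas HK1, HK2 and PFKL scatter around 0.

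Enzymes that steer flux into or away from the pathway were less uniform. PFKFB3 makes fructose 2,6-bisphosphate, the strongest activator of phosphofructokinase. It had 571 units in PANC1, 568 in L3.6, 2328 in HPAF1 and 771 in SU86.86, against 301 in HPDE. HPAF1 stood above the other lines, by 2.69 relative to HPDE and by 2.0 (SE 0.47, limma adjusted p = 0.262) relative to the mean of the other 4. The kinases PDK1 and PDK3, which inhibit pyruvate dehydrogenase and so hold back the conversion of pyruvate to acetyl-CoA, had ranges of 0.84 and 0.72. PDK1 was lowest in PANC1 (174 units, against 290.2 in HPDE) and PDK3 was highest in L3.6 (481 units, against 393 in HPDE). On another PDK1 probe set above the filter HPDE was lowest, at 172.3 units against 205.9 in PANC1. So the lowest line for PDK1 depends on the probe set. PFKFB4, a testis-type relative of PFKFB3, lay between 206 and 306 units in the carcinoma lines and at 217 in HPDE.

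The HIF alpha subunits were bright in every line, and their lowest levels fell in different carcinoma lines. HIF1A had 3441 units in PANC1, 5444 in L3.6, 7020 in HPAF1 and 8840 in SU86.86, against 6666 in HPDE. PANC1 was lowest, at -0.99 (SE 0.31, limma adjusted p = 0.749) relative to the mean of the other 4 lines. EPAS1, the HIF2 alpha subunit, had 2983 units in PANC1, 2048 in L3.6, 6983 in HPAF1 and 4356 in SU86.86, against 5934 in HPDE, and L3.6 was lowest. HIF alpha proteins are controlled mainly by their breakdown, which these RNA levels do not measure. EGLN1, the main oxygen-sensing prolyl hydroxylase, varied over 0.74. It was highest in HPAF1 (2106 units) and lowest in HPDE (1229). EGLN3, a hydroxylase that is itself induced by HIF, had 347 units in L3.6 and 127 in PANC1, against 137 in HPDE, the last 2 below the level filter.

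CA12, a membrane carbonic anhydrase that helps buffer acid outside the cell, was high in HPAF1. It had 218 units in PANC1, 231 in L3.6, 2591 in HPAF1 and 237 in SU86.86, against 289.5 in HPDE. HPAF1 exceeded the mean of the other 4 lines by 3.08 (SE 0.21, limma adjusted p = 0.0310 over all genes), and the other lines lay between 218 and 289.5 units, all above the level filter. CA12 was the single member that passed limma at 0.05 in any line, against a background of 0.242% of all genes for HPAF1. All 5 other probe sets of CA12 above the filter had their highest level in HPAF1 too. The smallest difference was on a nearly level probe set, with HPAF1 at 205.5 units and 0.19 above HPDE. Another read 77.8 to 83.3 units in the other carcinoma lines and 84.4 in HPDE, below the filter. A further set read 80.8 to 111.9 units in those carcinoma lines and 143.1 in HPDE. So whether the lines other than HPAF1 lie near background depends on the probe set. The call was lost with any other line left out of the fit, while the difference stayed at 3.04 to 3.15. Those smaller fits called no gene at all for HPAF1, so the loss is not particular to CA12. Over the settings that kept all lines the adjusted p was 0.0141 to 0.0454.

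In the other lines 0 members passed limma, where the background for PANC1 and for HPDE was 0.0269% of all genes each, and 0.0% for SU86.86 and for L3.6. An unadjusted p under 0.05 was found for 6 of 40 members in PANC1 (5.56% of all genes), 1 in L3.6 (3.37%), 5 in HPAF1 (10.1%), 1 in SU86.86 (3.74%) and 7 in HPDE (8.23%). The limma fit has 3 residual degrees of freedom and rests on the spread between different lines, so these p-values say nothing of the spread between cultures of a line.

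Secreted products of the response were high in different lines. VEGFA, the main angiogenic growth factor, had 1203 units in PANC1, 2019.9 in L3.6, 4001 in HPAF1 and 1979.6 in SU86.86, against 6937 in HPDE. Every carcinoma line was below HPDE, by -0.78 in HPAF1 to -2.46 in PANC1, and the gene's 3 other probe sets gave the same highest and lowest line. ADM, a vasodilator peptide, was arranged the opposite way, with 6513 units in PANC1, 1016 in L3.6, 1044 in HPAF1 and 2632 in SU86.86, against 737 in HPDE. PANC1 exceeded HPDE by 3.03, or 8.15-fold. So PANC1 and HPDE were at opposite ends for both genes, in opposite directions. ANGPTL4, an inhibitor of lipoprotein lipase named here after its values were seen, was also highest in PANC1, at 892 units against 247 in HPDE.

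The stanniocalcins are glycoprotein hormones of calcium and phosphate balance, and each was high in some lines only. STC1 had 1686 units in L3.6 and 114 in PANC1, 122 in HPAF1 and 129 in SU86.86, against 109 in HPDE, on the probe set used, where the lines other than L3.6 were below the level filter. L3.6 exceeded the mean of the other 4 lines by 3.21 (SE 0.19, limma adjusted p = 0.246, unadjusted p = 2.3e-05), an SE that rests on readings below the filter. A second probe set was above the filter in every line, at 476.6 units in L3.6 and 180.1 to 199.0 in the other carcinoma lines, against 154.3 in HPDE. L3.6 minus HPDE was 3.29 on the probe set used, 1.28 on that second one and 4.53 on the third, so L3.6 was highest on each but whether the other lines lie near background depends on the probe set. The summed level of 5 fibroblast markers was also highest in L3.6, at 2832 units. It was 1486 to 2299 units in the other carcinoma lines and 1571 in HPDE. The excess in L3.6 came mainly through COL1A2 (889 units in L3.6). COL1A1 (1685.1 units) and COL3A1 (157.1) were highest in PANC1, LUM (158.3) in HPAF1 and DCN (237.0) in L3.6. COL1A1 and DCN were above the level filter in every line. The part of these marker differences in STC1 was not tested. STC2 had 1679 units in PANC1, 735 in L3.6, 62 in HPAF1 and 76 in SU86.86, against 1282 in HPDE. HPAF1 and SU86.86 were below the level filter on both probe sets of STC2, and the other lines were above it. On the second STC2 probe set HPDE was highest, at 1268.5 units against 807.5 in PANC1, so the highest line depends on the probe set.

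Genes that act on mitochondria or on growth signalling under stress had wide ranges. BNIP3, a mitochondrial protein that marks damaged mitochondria for removal, had 1979 units in PANC1, 961 in L3.6, 27 in HPAF1 and 660 in SU86.86, against 1930.5 in HPDE. HPAF1 lay at -4.35 relative to HPDE, far below the level filter, and on the second probe set it read 24 units with a difference of -4.41. In limma HPAF1 against the other 4 lines was -3.76 (SE 0.68, adjusted p = 0.184). BNIP3L, the paralogue of BNIP3 that clears mitochondria in maturing red cells, had 1234 units in PANC1, 785 in L3.6, 2410 in HPAF1 and 394 in SU86.86, against 1166 in HPDE. The line with the lowest BNIP3 thus had the highest BNIP3L. On the second BNIP3L probe set HPAF1 remained highest, but only by 0.07 over HPDE.

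DDIT4, an inhibitor of mTOR signalling also called REDD1, had 786 units in PANC1, 5059 in L3.6, 3961 in HPAF1 and 477 in SU86.86, against 14191 in HPDE. Every carcinoma line was lower, by -1.48 in L3.6 to -4.70 in SU86.86. NDRG1, a differentiation-linked gene strongly induced by hypoxia, had 654 units in PANC1, 615 in L3.6, 1430 in HPAF1 and 171 in SU86.86, against 2806 in HPDE. Both genes shared HPDE as the highest line and SU86.86 as the lowest. In limma HPDE against the other 4 lines was 3.01 for DDIT4 and 2.14 for NDRG1, and neither reached an unadjusted p under 0.05. ANKRD37, a small ankyrin-repeat gene, ranged from 121 units in SU86.86 to 463 in L3.6, with 147 in HPDE.

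**Figure D3:**
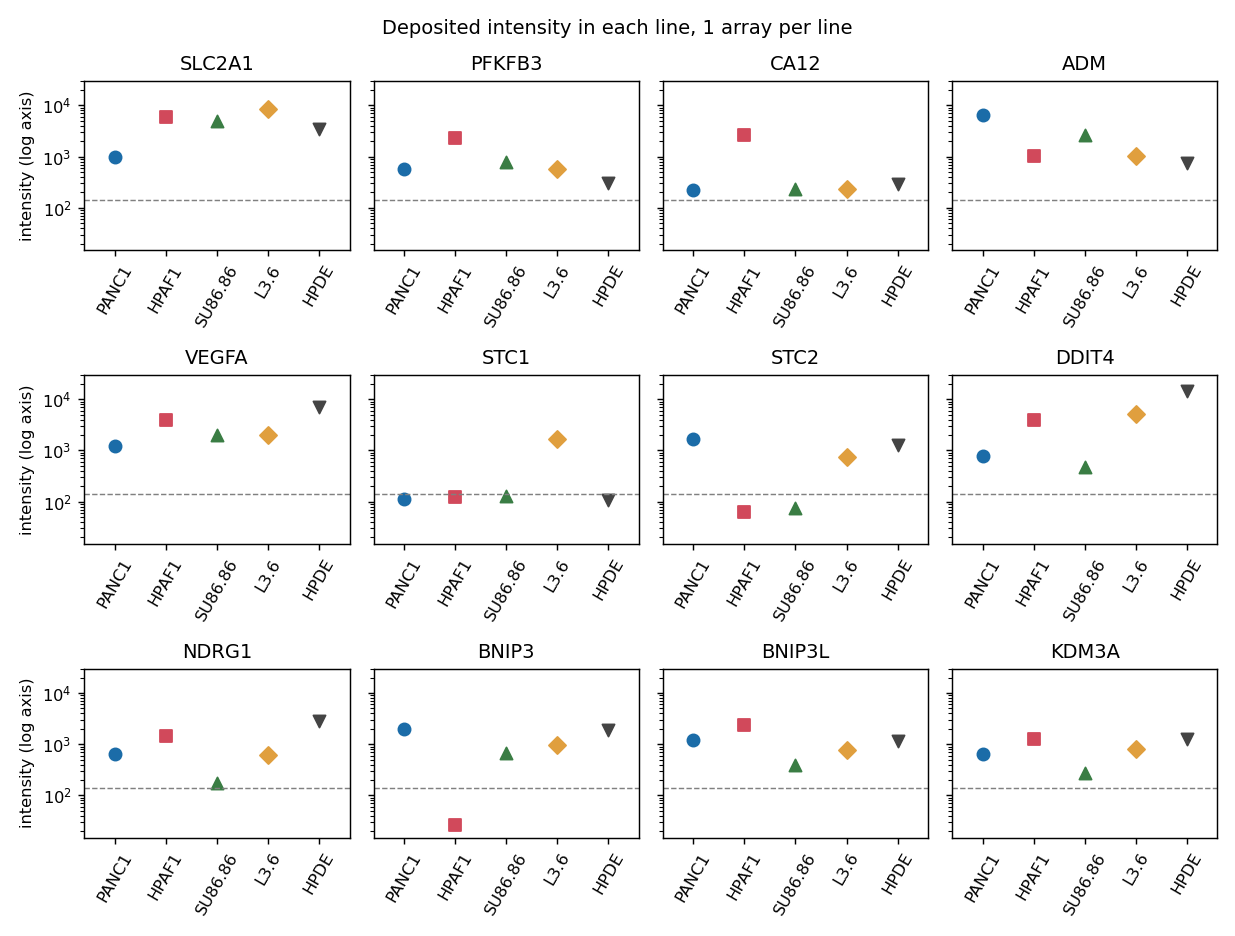
Each panel plots the deposited intensity (vertical log axis) of a gene in the 5 lines (horizontal axis), 1 point per array; the dashed line is the level filter at 140 units. BNIP3 in HPAF1 (27 units) and STC2 in HPAF1 and SU86.86 (62 and 76 units) fall below the filter, while DDIT4, NDRG1 and VEGFA are highest in HPDE.

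The collagen prolyl hydroxylases and the histone demethylase KDM3A complete the list. P4HA1, a catalytic subunit needed for stable collagen helices, had 1216 units in PANC1, 1211 in L3.6, 879.7 in HPAF1 and 831 in SU86.86, against 423 in HPDE, and so shared the order of the enzymes between HPDE and the rest. P4HA2, its sister subunit, was highest in SU86.86 (2327 units) and lowest in PANC1 (804), with 1491 in HPDE. On a dimmer P4HA2 probe set PANC1 was again lowest but HPDE was highest, at 324.3 units against 305.5 in SU86.86. KDM3A, which removes methyl groups from histone H3, had 643 units in PANC1, 793 in L3.6, 1293 in HPAF1 and 272 in SU86.86, against 1290 in HPDE. SU86.86 was lowest, at -1.59 (SE 0.46, limma adjusted p = 0.998) relative to the other 4 lines.

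Beyond the enzymes, the members lay on both sides of HPDE. Of the 24 others, PANC1 had 3 higher and 4 lower by at least 2-fold (8.47% and 9.26% of all genes), with a median difference of -0.05. HPAF1 had 3 higher and 3 lower (7.77% and 9.27%), with a median of 0.22. For SU86.86 there were 2 higher and 7 lower (8.44% and 7.72%), with a median of -0.12. For L3.6 there were 5 higher and 4 lower (6.55% and 8.59%), with a median of 0.11. SU86.86 relative to the mean of the other 4 lines had 5 of 40 members at least 2-fold lower, where 2.59% of all genes were, namely DDIT4, NDRG1, STC2, KDM3A and BNIP3L, and 0 at least 2-fold higher, where 5.29% were. PANC1 had 6 higher, ADM and STC2 by the most, and 4 lower, SLC2A1 and DDIT4 by the most, where 5.38% and 5.54% of all genes were. HPAF1 had 3 higher (6.96%), namely CA12, PFKFB3 and BNIP3L, and 2 lower (6.3%), BNIP3 and STC2. L3.6 had 3 higher (2.99%), namely STC1, SLC2A1 and DDIT4, and 1 lower (4.72%), EPAS1. HPDE had 5 higher (6.48%), namely DDIT4, NDRG1, STC2, VEGFA and BNIP3, and 9 lower (5.57%), of which 5 were enzymes beside PFKP.

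**Figure D4:**
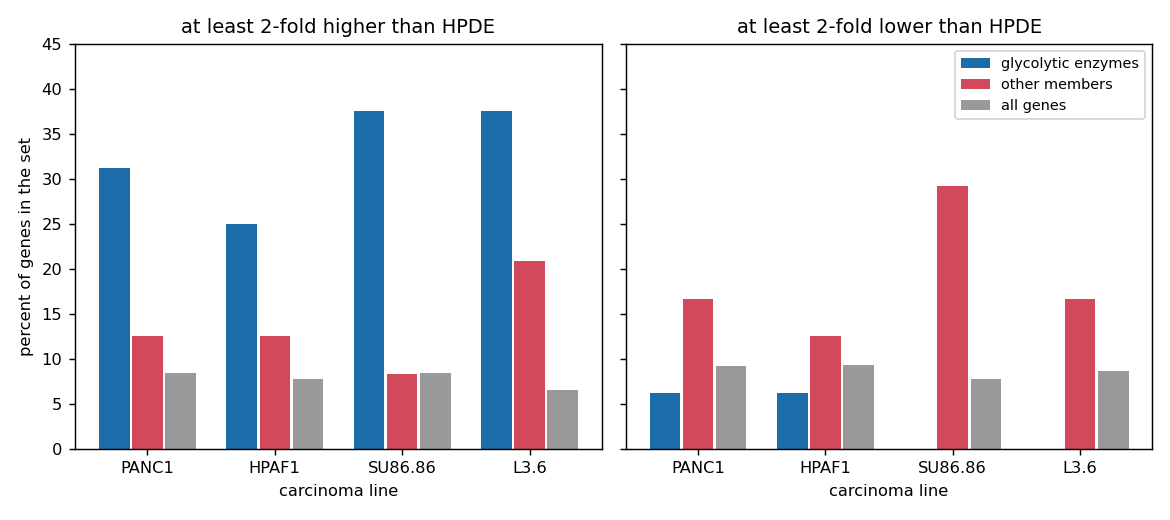
Bars give the percent of genes in a set (vertical axis) at least 2-fold higher (left panel) or lower (right panel) than HPDE in each carcinoma line, for the 16 glycolytic enzymes, the 24 other measured members and all 14894 genes kept. The enzyme bars exceed the all-gene bars for higher levels in all 4 lines, and 0 enzymes were at least 2-fold lower in SU86.86 and L3.6.

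Related genes outside the 43 were counted in the same way. Of 15 further glycolysis genes measured, 1 was at least 2-fold higher than HPDE in PANC1 and 1 in L3.6, with 0 in HPAF1 and SU86.86, and TIGAR in L3.6 was the 1 lower. HPDE held the lowest level of 4 of the 15. Over all genes past the level filter, 6.55% to 8.47% were at least 2-fold higher, depending on the line, and 22.7% were lowest in HPDE. Only 11 of the 15 passed that filter, so the counts and these shares rest on unlike sets of genes. BPGM, which makes the haemoglobin effector 2,3-bisphosphoglycerate, ranged from 10.42 log2 units in PANC1 to 7.87 in HPAF1, with 8.72 in HPDE. TIGAR lowers fructose 2,6-bisphosphate, and L3.6 lay at -1.30 relative to HPDE. GAPDH, named here after its values were seen, was 0.16 to 0.39 above HPDE in the carcinoma lines. Of 19 citric acid cycle and pyruvate dehydrogenase genes, 1 or 2 were at least 2-fold higher than HPDE in each carcinoma line and 0 lower. Over all genes 6.55% to 8.47% were higher and 7.72% to 9.27% lower by that much. The medians of these 19 genes were 0.17 to 0.32. HPDE held the lowest level of 6 of them, where 22.7% of all genes were lowest in that line. IDH3A, a subunit of the isocitrate dehydrogenase of the cycle, lay at -0.96 in HPAF1 and at 0.42 to 0.93 in the other carcinoma lines relative to HPDE. PDHB, a subunit of pyruvate dehydrogenase, was 0.82 to 1.55 above HPDE. SUCLA2, a subunit of succinyl-CoA synthetase, lay at 0.76 in SU86.86 and at -0.76 to -0.01 in the other carcinoma lines. Of 32 further hypoxia-responsive genes, 7 or 8 were at least 2-fold higher and 4 lower in each carcinoma line, with medians of 0.05 to 0.14. Over all genes 6.55% to 8.47% were higher and 7.72% to 9.27% lower by that much, depending on the line. AKAP12, a scaffold of protein kinase A, was 3.07 to 6.07 above HPDE, and LOXL2, a collagen cross-linking enzyme, 0.79 to 4.45. In HPDE both were below the level filter, at 55.4 and 58.2 units, so the size of these differences depends on the added constant. PLIN2, a coat protein of lipid droplets, lay at -1.20 in HPAF1, where it was below the filter, and at 0.50 to 1.72 in the other carcinoma lines. PFKFB2, a relative of PFKFB3 among the further glycolysis genes, lay at -0.77 in SU86.86 to 0.39 in PANC1. Of these 3 lists 0 members passed limma in any line, and between 0 and 6 per list and line had an unadjusted p under 0.05, where 3.37% to 10.1% of all genes did, depending on the line.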

How the data were processed

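Biotin-labelled RNA of 5 lines was hybridised to one-colour Affymetrix arrays, per the labels' protocols. Each of 54675 probe sets has a linear intensity per array in the authors' deposited table. Their summarisation and scaling are not given in the sources used here. Values were used as deposited, as log2(intensity + 71.1). Of the probe sets, 41091 carried 1 symbol, 41037 of them matched to RefSeq (GRCh38.p14), 1801 carried several and were not used, and 62 controls were left out. The probe set with the highest mean log2 was kept per gene, giving 19775 genes, of which 14894 reached the level filter of 140 units in some line. With limma 3.58.1 (R 4.3.3), the 4 remaining lines' mean was subtracted from each line and tested two-sided, with p-values adjusted by Benjamini-Hochberg across all 14894 genes; the script was tested on simulated data. The lone line is assumed to vary like the others. Differences from HPDE have 1 array a side and were described by size, with no test. The arrays' number limits precision. By rule, values were given for up to 4 members per role with the widest range (6 for enzymes), always for HIF1A, EPAS1, SLC2A1, LDHA, LDHB and VEGFA, and for up to 3 genes of each further list. Members and lists were chosen with earlier results of these data known. Alternatives changed the added constant, normalization, probe set, filter and lines.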

Additional observations from a re-analysis of the deposited data

How the results depend on the processing

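The number of glycolytic enzymes lowest in HPDE, 10 of 16, was 9 after quantile normalization, 10 to 11 with a carcinoma line left out, and 5 of 9 without probe sets marked _x_ or _s_, which can match several transcripts and whose removal left 23 members. The count of enzymes lowest in HPDE was chosen after seeing the data. Leaving out a carcinoma line cannot lower it on the same probe sets, so that setting is no check of it. The share of all genes lowest in HPDE was not taken in these settings. Without the _x_ and _s_ probe sets, members at least 2-fold apart from HPDE numbered 5 in PANC1 (13 with all), 9 in L3.6 (15), 5 in HPAF1 (11) and 8 in SU86.86 (15). These counts are out of 23 members, against 40 with all probe sets. The share of all genes that far apart was not taken without those probe sets. Median member differences from HPDE then became -0.35 in PANC1, 0.21 in HPAF1 and 0.25 in L3.6, against 0.10, 0.40 and 0.37, and differences from the other 4 lines 0.12 in SU86.86 and -0.16 in HPDE, against -0.01 and -0.36. For PANC1 minus HPDE the median was 0.20 with an added constant of 1 unit and 0.30 with the filter at the 75th percentile, which kept 36 members, and PANC1 against the other 4 was 0.02, against -0.09. The cause was not tested. With a line left out, medians against the remaining lines ran from -0.09 to 0.10 in PANC1, 0.11 to 0.32 in L3.6, 0.08 to 0.27 in HPAF1, -0.12 to 0.06 in SU86.86 and -0.44 to -0.19 in HPDE. The 1 member past limma in HPAF1, CA12, became 0 when any of the other lines was dropped, where fewer samples entered the fit. HK2 in PANC1 minus HPDE reversed, being 0.35 with the mean of all its probe sets against -1.42 on the brightest. No paired analysis was possible because each line has 1 array and the labels give no replicate numbers.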
